A study of Zea mays with 4 samples.

Results

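The 72 nuclear genes described here were among the most abundant by fragment share in maize seedlings grown without chilling. A gene was included if its identifier began with Zm00001d and it reached at least 1000 CPM (fragments of the gene scaled by all fragments assigned to genes in that library) in both control libraries. A fixed set of 10 C4 and Rubisco genes was left out, of which 9 reached that level. Left-out genes held ranks 1, 2 and 3 among nuclear genes in both control libraries. The 72 genes were drawn from 44146 nuclear genes and 46430 loci in all. The control values chose the genes, so their control levels are a description and carry no test. Every one of the 72 passed the low-count filter of the test.

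Seedlings of B73, an inbred line of maize labelled as wild type, were taken whole and profiled by RNA-seq after 24 h at 4 °C (cold, COLD in the labels) or after continued growth (control, CK). Before the split, the plants had spent 9 days in soil at 25 to 28 °C under a cycle of 16 h light and 8 h dark. For each library the labels give 10 plants aged 10 days. Each condition had 2 libraries. The assigned fragments numbered 24176378 and 20942576 in the cold libraries and 28493929 and 23713326 in the control libraries. Whether replicates were grown separately is not given. In the names of the count columns both control libraries carry the same number tag, whereas the cold libraries carry different ones. The meaning of these tags is not given. The p-values thus speak for the spread among these libraries alone, and that spread may be technical.

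In a green seedling, a small number of transcript kinds usually takes up a large part of the messenger RNA, and many of them encode chloroplast proteins for light capture and carbon fixation or proteins of translation and the cell wall. Maize fixes carbon by the C4 route, in which mesophyll cells capture carbon dioxide and pass it to Rubisco in the bundle sheath. Maize is of tropical origin, and chilling is known to slow its photosynthesis. The nuclear identifiers are not paired with gene names in the deposited table, and the reference table named 0 of them. Each gene is therefore called by its identifier, with coordinates on the B73 RefGen_v4 assembly and no function attached. The left-out C4 and Rubisco genes are the only named green-tissue markers here. They took 3.85% and 4.93% of the cold libraries and 3.88% and 3.68% of the control libraries, so transcripts of green tissue were abundant in all 4 libraries.

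Together the 72 genes took a smaller share of the cold libraries. Their summed share was 9.33% and 9.65% of fragments in the cold libraries, against 13.9% and 12.6% in the control libraries. The mean was 9.49% ± 0.222 in cold and 13.2% ± 0.950 in control (SD, n = 2 each), a ratio of 0.718. The cold libraries both lay below the control libraries. Control values chose the genes, so this difference is a description with no test. Fewer cells of a type and less RNA per cell cannot be told apart in bulk seedlings. Fragments of mitochondrial genes made up 0.134% and 0.112% of the cold libraries and 0.0765% and 0.0701% of the control libraries. This share is no direct measure of RNA quality, and its part in the results was not tested.

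**Figure D1:**
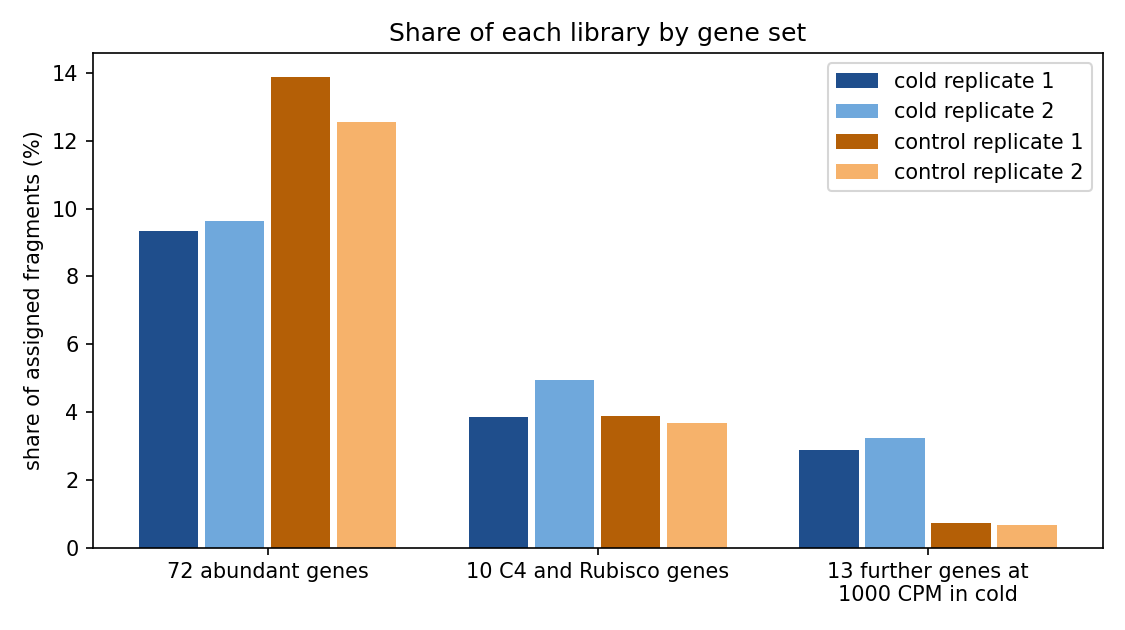
Share of assigned fragments, in percent, taken by 3 gene sets in each library (bars, 1 per library). The 72 abundant genes stand at 9.33% and 9.65% in cold and 13.9% and 12.6% in control, while the 10 C4 and Rubisco genes stand between 3.68% and 4.93% in all libraries.

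The left-out C4 and Rubisco genes give a yardstick within each library, but not a fixed one. Their own share was 3.85% and 4.93% in the cold libraries and 3.88% and 3.68% in the control libraries. A ratio to them moves with that share too. Summed fragments of the 72 genes were 2.43 and 1.96 times those of the C4 and Rubisco genes in the cold libraries, against 3.58 and 3.41 times in the control libraries. This ratio does not depend on how libraries are scaled, and it has no test, since control values of the 72 genes enter it. Of the 10 left-out genes, 2 rose, 0 fell and 8 were not called in edgeR (27.0% of all tested genes were called in each direction). Their median log2 fold change was 0.38. Lower values numbered 0 at an unadjusted p under 0.05 too, and DESeq2 called 0 lower. On the log2 scale Zm00001d044099 rose by 1.05 (adjusted p = 0.013) and Zm00001d028471 by 0.87 (adjusted p = 0.021). Among genes outside both sets, 13 reached 1000 CPM in both cold libraries. These 13 took 2.87% and 3.24% of the cold libraries and 0.734% and 0.680% of the control libraries. They were selected by their cold values, so this difference has no test.

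Scaling bears on every change given here. TMM factors, which assume that most genes keep their level, put the median log2 fold change of all 23169 tested genes at -0.03, and library totals alone put it at -0.24, a shift of -0.21. CPM values in the text use library totals and so are shares of the library. Fitted log2 fold changes and calls use TMM. They come from the edgeR quasi-likelihood test over all tested genes, called at a Benjamini-Hochberg adjusted p under 0.05. That test called 27.0% of all tested genes higher and 27.0% lower, so whether most genes kept their level is uncertain. On TMM-scaled library sizes the summed share of the 72 genes was 9.66% and 10.8% in cold and 13.2% and 11.4% in control. The difference between the means was then -2.08 percentage points, in place of -3.73 points.

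Among the 72 genes, 3 rose, 23 fell and 46 were not called. Over all tested genes 27.0% were called higher and 27.0% lower. Control levels chose the 72 genes, so their counts are not read against those percentages. The median log2 fold change was -0.35 over the 72 genes and -0.03 over all tested genes. With library totals alone it was -0.56 over the 72 genes and -0.24 over all tested genes. In that fit 41 of the 72 genes were called lower, against 35.3% of all tested genes. The count of higher calls stayed at 3 (20.6% of all tested genes). By library totals 62 genes had a lower mean CPM in cold, and 51 had a negative fitted change on the TMM scale.

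**Figure D2:**
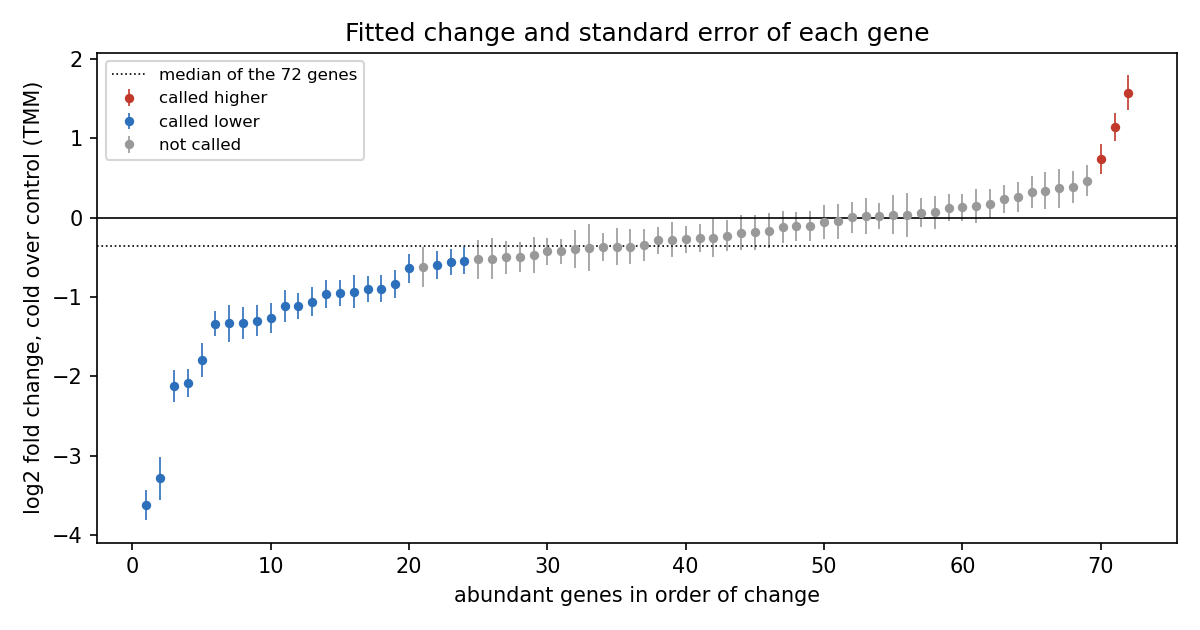
Fitted log2 fold change of cold over control (TMM scaling) for each of the 72 genes in rising order, with its standard error as a bar and its call as colour. The 23 genes called lower run from -3.62 to -0.54, the 3 called higher from 0.74 to 1.58, and the dotted line marks the median of -0.35.

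The calls differed in how far they relied on single libraries. Of the 23 genes that fell, 17 were also called lower in each fit that left out a library. Lower calls numbered 26 without cold replicate 1 (26.9% of all tested genes), 29 without cold replicate 2 (25.2%), 17 without control replicate 1 (17.6%) and 19 without control replicate 2 (16.7%). Higher calls numbered 4 (26.7%), 3 (26.3%), 2 (19.6%) and 2 (18.6%) in the same fits. Of the 3 that rose, 2 stayed called in all 4 of them. Among the 46 genes that were not called, 28 had negative and 18 positive fitted changes, between -0.62 and 0.46. For 21 of these 46 at least 1 of the other fits made a call, and for 25 none did. DESeq2 called 5 genes higher (25.5% of all tested genes) and 29 lower (22.1%), and upper-quartile factors gave 3 higher (22.4%) and 31 lower (33.9%). Without a low-count filter 4 were higher (22.1%) and 31 lower (22.3%), and with at least 5 CPM in 2 libraries 3 were higher (30.6%) and 24 lower (29.6%). RLE size factors gave 3 higher (28.0%) and 23 lower (25.8%), as did TMM factors computed without the 72 genes and the left-out genes (27.1% and 26.7%). At an adjusted p under 0.01, 2 were higher (19.2%) and 19 lower (17.1%), and with at least a 2-fold change 2 were higher (15.1%) and 13 lower (14.7%). By library totals the CPM of the conditions did not overlap, with cold lower, for 54 genes (50.0% of all tested genes) and, with cold higher, for 5 (29.6%). On the TMM scale these counts were 39 (41.2%) and 10 (38.2%). No gene of the 72 was called in opposite directions by the fits that were run, which are the scalings, filters, DESeq2, the replicate block and the 4 left-out libraries.

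The steepest fall belonged to Zm00001d040202, a gene with 7 exon blocks (exons of all its transcripts merged) and 4272 exon bases on chromosome 3 (31827897 to 31838331, plus strand). It had 226 and 192 CPM in the cold libraries, against 2947 and 2998 CPM in the control libraries. Both cold values lay far below both control values, and the replicates of each condition were close. The fitted log2 fold change was -3.62 (SE 0.19, adjusted p = 2.2e-05). In rank among nuclear genes it stood at 669 and 867 in cold, against 13 and 11 in control.

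Zm00001d016991 has the shortest exon length of the 72 genes, with a single exon block of 315 bases on chromosome 5 (182159462 to 182159776, plus strand). Its levels were 103 and 156 CPM in cold and 1603 and 1330 CPM in control. The groups were wide apart, although the cold libraries differed 1.51-fold from each other. Its fitted change was -3.28 (SE 0.27, adjusted p = 1e-04). No other gene of the 72 ranked as low in the cold libraries, at 1953 and 1122, against 44 and 50 in control.

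A pair of further single-block genes was among the 8 largest falls. Zm00001d044925, a single exon block of 423 bases on chromosome 9 (7355249 to 7355671, minus strand), had 316 and 391.9 CPM in cold and 1845 and 1735 CPM in control. Zm00001d037513, a single block of 639 bases on chromosome 6 (127667045 to 127667683, minus strand), had 355 and 477 CPM in cold and 1588 and 1769 CPM in control. The groups did not overlap for either gene, and the fitted changes were -2.12 (SE 0.21, adjusted p = 0.00018) and -1.79 (SE 0.22, adjusted p = 0.00049).

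Genes with several exon blocks were also among them. Zm00001d020636, with 6 exon blocks and 3546 exon bases on chromosome 7 (125837492 to 125842596, plus strand), had 357 and 271 CPM in cold and 1515 and 1562 CPM in control, and fell by 2.09 on the log2 scale (SE 0.18, adjusted p = 0.00011). Zm00001d032197, with 3 exon blocks and 1230 exon bases on chromosome 1 (216771029 to 216772472, minus strand), had 544 and 472 CPM in cold and 1682 and 1256 CPM in control. Its change was -1.33 (SE 0.21, adjusted p = 0.0014). Its control libraries were further apart than its cold libraries, without reaching the cold values.

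Zm00001d041550 on chromosome 3 (126862145 to 126865908, minus strand) had 393 and 391 CPM in cold and 1147 and 1146 CPM in control, and its change was -1.34 (SE 0.16, adjusted p = 0.000405). The replicates were nearly equal within each condition. This locus overlaps 3 annotated genes on its own strand and shares exon bases with 2 of them. Fragments that overlap several genes were not counted, so its level is uncertain. The same limit applies to Zm00001d039258 and Zm00001d009028, each of which shares exon bases with a gene on the opposite strand. Strand was not used in counting.

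Many genes of the 72 kept a high rank in cold. Of the 72, 37 stayed at or above 1000 CPM in both cold libraries, 7 did so in 1 library and 28 were below it in both. Of the 23 genes that fell, 3 were still above that level in both cold libraries and 8 were under 500 CPM in both. All 72 genes were among the top 86 nuclear genes of the control libraries, and 50 and 46 of them were among the top 100 of cold replicates 1 and 2. Outside the top 200 were 10 and 12 of them in the cold libraries.

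**Figure D3:**
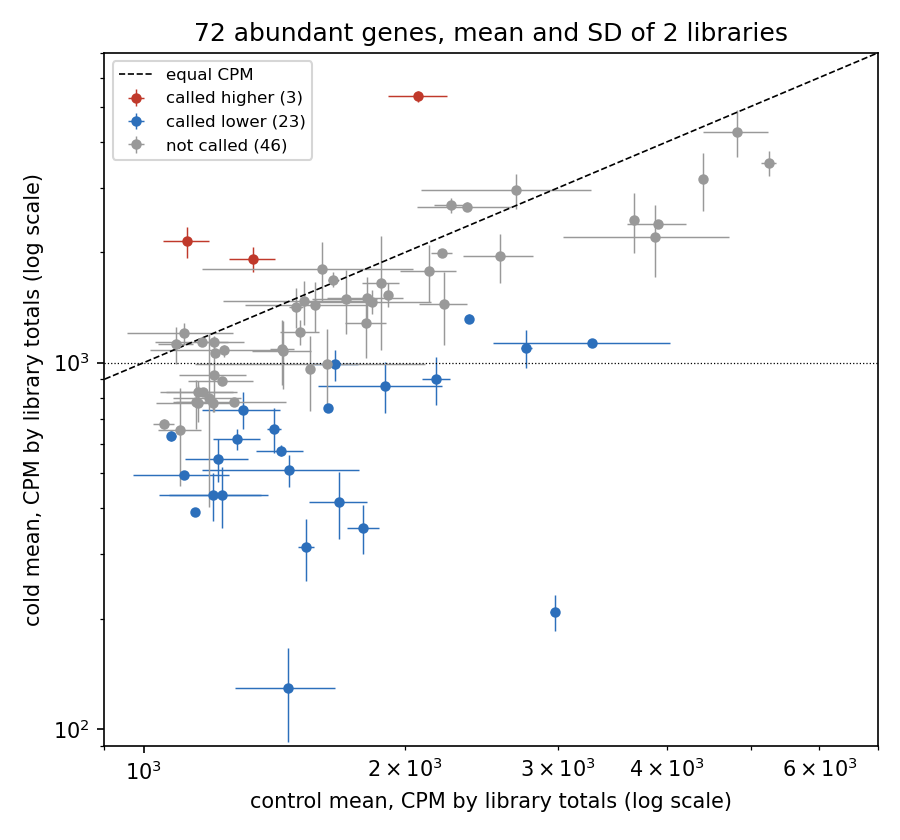
Mean cold CPM against mean control CPM of the 72 genes by library totals, on log axes, with bars for the SD of 2 libraries. The dashed line marks equal CPM and the dotted line 1000 CPM in cold. The lowest cold mean was 129 CPM and the highest 5327 CPM.

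The 3 genes that rose moved up the list. Zm00001d003157, with 3 exon blocks and 2346 exon bases on chromosome 2 (33981493 to 33984783, minus strand), had 5191 and 5462 CPM in cold, against 2184 and 1957 CPM in control. The values did not overlap, and its fitted change was 1.58 (SE 0.22, adjusted p = 0.00092). It ranked at 4 and 5 among nuclear genes in cold, against 24 and 26 in control. Its mean of 5327 CPM was the highest of the 72 genes in cold.

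Zm00001d013367, with 3 exon blocks and 3113 exon bases on chromosome 5 (9834794 to 9838085, minus strand), had 2289 and 1993 CPM in cold and 1073 and 1167 CPM in control. Its change was 1.14 (SE 0.18, adjusted p = 0.0014). Zm00001d004342, with 2 exon blocks on chromosome 2 (105058417 to 105061020, minus strand), had 1816 and 2030 CPM in cold and 1278 and 1392 CPM in control, a change of 0.74 (SE 0.19, adjusted p = 0.012). The cold values lay above the control values for both genes. The second call was lost without control replicate 1 (adjusted p = 0.11) and without control replicate 2 (adjusted p = 0.11).

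The next largest gains in CPM were not called. Zm00001d048611 on chromosome 4 (1283712 to 1284484) had 2595 and 2774 CPM in cold and 2189 and 2328 CPM in control, a fitted change of 0.46 (SE 0.20, adjusted p = 0.078). Zm00001d018797 on chromosome 7 (5387875 to 5388613) had 2718 and 2608 CPM in cold and 2561 and 2149 CPM in control, a change of 0.39 (SE 0.21, adjusted p = 0.15). Cold values lay above control values for both genes, and DESeq2 called both higher, at adjusted p = 0.0041 and 0.028.

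At the top of the control list most genes were not called. Zm00001d031168, on chromosome 1 (180447018 to 180448137, minus strand), had 3312 and 3706 CPM in cold and 5317 and 5174 CPM in control. That is a non-overlapping difference in share of the library, but the fitted change was -0.36 (SE 0.22, adjusted p = 0.20). With library totals alone it was -0.58 and was called (adjusted p = 0.014). Zm00001d023559 on chromosome 10 (10215795 to 10217698) had 3832 and 4708 CPM in cold and 5120 and 4530 CPM in control. Here the libraries of the conditions overlapped, and the fitted change was 0.04 (SE 0.24, adjusted p = 0.90).

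Zm00001d023516, also on chromosome 10 (8543363 to 8544872), had 2767 and 3575 CPM in cold and 4399 and 4404 CPM in control. Its fitted change was -0.25 (SE 0.24, adjusted p = 0.40). It has only 489 exon bases. Per exon base it was the most abundant of the 72, at 9858 and 12470 TPM (a transcript measure adjusted for exon length) in cold and 14078 and 14403 TPM in control. The replicates in cold differed more than those in control.

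Other leading genes had negative changes that missed the threshold. Zm00001d036535 on chromosome 6 (91338946 to 91340275) had 2393 and 2388 CPM in cold and 4124 and 3693 CPM in control, with a fitted change of -0.50 (SE 0.21, adjusted p = 0.074). Zm00001d021435, a single-block gene on chromosome 7 (152283433 to 152284280), had 2553 and 1856 CPM in cold and 4479 and 3286 CPM in control, with a change of -0.62 (SE 0.25, adjusted p = 0.071). Zm00001d039258 on chromosome 3 (697981 to 701289) had 2122 and 2769 CPM in cold and 3651 and 3686 CPM in control, with a change of -0.36 (SE 0.23, adjusted p = 0.22). By library totals the cold values of all 3 lay below their control values, and each was called lower with totals alone. DESeq2 called Zm00001d036535 (adjusted p = 0.0094) and Zm00001d021435 (adjusted p = 0.0089) lower, as did the fit without a low-count filter (adjusted p = 0.023 and 0.0062).

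Of the 10 genes with the highest control level, 3 fell and 0 rose in edgeR (0 were higher at an unadjusted p under 0.05 or by DESeq2). Over all tested genes 27.0% were called in each direction. The steepest was Zm00001d040202, described above. Zm00001d041819 on chromosome 3 (139135030 to 139136095) had 1133 and 1129 CPM in cold and 3816 and 2748 CPM in control, a fitted change of -1.33 (SE 0.23, adjusted p = 0.0025). Zm00001d011183 on chromosome 8 (142217718 to 142219220) had 1005 and 1189 CPM in cold and 2787 and 2728 CPM in control, a change of -1.11 (SE 0.20, adjusted p = 0.003). Zm00001d046786 on chromosome 9 (105955854 to 105957260) had 3180 and 2724 CPM in cold and 3103 and 2259 CPM in control, where the conditions overlapped, and was not called (0.34, SE 0.24, adjusted p = 0.25).

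By library totals the loss of share was spread over many genes. In mean CPM by library totals, the genes that were lower in cold changed by -43577 CPM in all and those that were higher by 6227 CPM. The 23 called genes made up 56.4% of the loss, and genes that were not called made up 43.6%. The 5 largest losses, those of Zm00001d040202, Zm00001d041819, Zm00001d031168, Zm00001d021435 and Zm00001d011183, made up 22.9%. On the TMM scale the 46 genes that were not called took 7.16% and 8.16% of the cold libraries and 8.90% and 7.61% of the control libraries, which overlap. The 23 that fell took 1.54% and 1.58% in cold and 3.87% and 3.41% in control. They were called lower from these same data, so that difference is a description. On this scale the means differed by -2.08 points for the 23, -0.594 points for the 46 and 0.592 points for the 3 that rose.

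Levels per exon base gave another order. The control mean ran from 520 to 14241 TPM, with a median of 2029 TPM, and 58 of the 72 genes had at least 1000 TPM in both control libraries. A rule of 1000 TPM in place of 1000 CPM gave 102 genes, of which only those 58 belong to the 72. Zm00001d016991, with ranks of 44 and 50 among all nuclear genes by control CPM, held place 3 of the 72 by control TPM, with 570 and 843 TPM in cold and 7964 and 6754 TPM in control. Zm00001d013367 was at place 71. Summed over the 72 genes, the share of TPM was 14.9% and 15.1% in cold and 21.2% and 19.4% in control.

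In structure the 72 genes were shorter than other expressed nuclear genes. Their median exon length was 1267 bases, against 1888 bases over 22983 tested nuclear genes, and 33.3% of them had under 1000 exon bases, against 17.9%. At a given number of transcripts per cell, CPM rises with length. Single-block genes were about as common, at 12 of 72 (16.7%) against 16.9%. The number of exon blocks had a median of 3, against 4, and reached at most 12.

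Shorter genes of the 72 had the more negative median change, as did shorter genes in general. Below 1000 exon bases, 11 of 24 fell and 0 rose in edgeR (1 was higher at an unadjusted p under 0.05, and DESeq2 called 2 higher), with a median of -0.53. Of 4111 tested nuclear genes of that length, 29.8% fell and 815 rose, with a median of -0.18. From 1000 to 2000 bases 7 of 33 fell and 1 rose, with a median of -0.28. Of 8127 tested nuclear genes of that length, 27.4% fell and 2129 rose, with a median of -0.05. At 2000 bases or more 5 of 15 fell and 2 rose, with a median of -0.19. Of 10745 such nuclear genes, 25.97% fell and 3263 rose, with a median of 0.03. The genes were chosen by control level, so their counts are not read against these shares. Across the 72 genes Spearman's rho of the change with exon length was 0.15, with exon blocks 0.24 and with control CPM 0.01. Genes of the same libraries are not independent, so these are descriptions only.

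The 72 genes lay on all 10 chromosomes, with 3 on chromosomes 8 and 9 and up to 11 on chromosome 5. They did not sit side by side. Only 3 pairs of consecutive genes of the set were under 1 Mb apart, the closest being Zm00001d018779 and Zm00001d018797 on chromosome 7 with 334483 bases and 15 other nuclear genes between them. Neither was called. Zm00001d006540 and Zm00001d006587 on chromosome 2, with 38 genes between them, both fell, with log2 fold changes of -0.84 and -1.30. Without control replicate 1 the call of the first was lost (adjusted p = 0.06).

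Replicates differed in ways that bear on single genes. In control, replicate 1 exceeded replicate 2 in CPM for 56 of the 72 genes, by a median ratio of 1.09, whereas the median ratio over all tested genes was 0.957. For 16 genes the ratio was at least 1.2, and it reached 1.53 for Zm00001d013146 (1966 and 1286 CPM). In cold, replicate 2 exceeded replicate 1 by at least 1.2-fold for 18 genes and fell short of it by as much for 14. The extremes were Zm00001d042050, with 1249 and 2051 CPM in cold, and Zm00001d054044, with 1080 and 519 CPM. Neither of those was called, but Zm00001d054044 was called lower without cold replicate 1 (-0.93, adjusted p = 0.00095) and had a change of 0.03 without cold replicate 2. All 10 left-out C4 and Rubisco genes were higher in cold replicate 2, by ratios of 1.13 to 1.504.

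**Figure D4:**
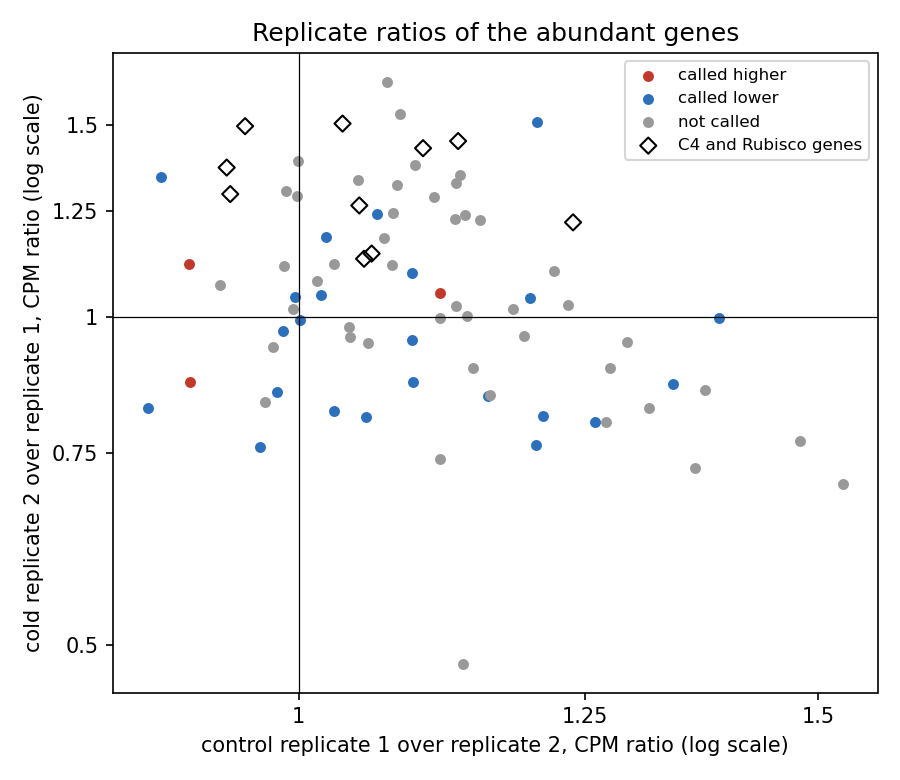
CPM ratio of cold replicate 2 over replicate 1 (vertical axis) against control replicate 1 over replicate 2 (horizontal axis), on log axes. Each dot is 1 of the 72 genes, coloured by its call, and open diamonds are the 10 C4 and Rubisco genes, all of which lie above a cold ratio of 1.

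Other ways of choosing abundant genes, added after the data were seen, gave other balances of higher and lower calls. When the mean over all 4 libraries had to reach 1000 CPM, 66 nuclear genes qualified. Of these, 13 rose and 13 fell (19.7% each way, against 27.0% each way over all tested genes), with a median log2 fold change of -0.06, and 55 of them belong to the 72. Their share was 10.9% and 11.5% in cold and 12.5% and 11.3% in control, which overlap. Of 50 genes at 1000 CPM or more in both cold libraries, 16 rose and 3 fell (against the same 27.0% each way), with a median of 0.14, and 37 belong to the 72. All these sets leave out the C4 and Rubisco genes. At lower abundance the median also differed with the libraries that set the tier. Among genes of 300 to 1000 CPM the median was -0.10 when the control mean set the tier (348 genes), 0.09 with the mean of all libraries (371 genes) and 0.38 with the cold mean (403 genes).

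**Figure D5:**
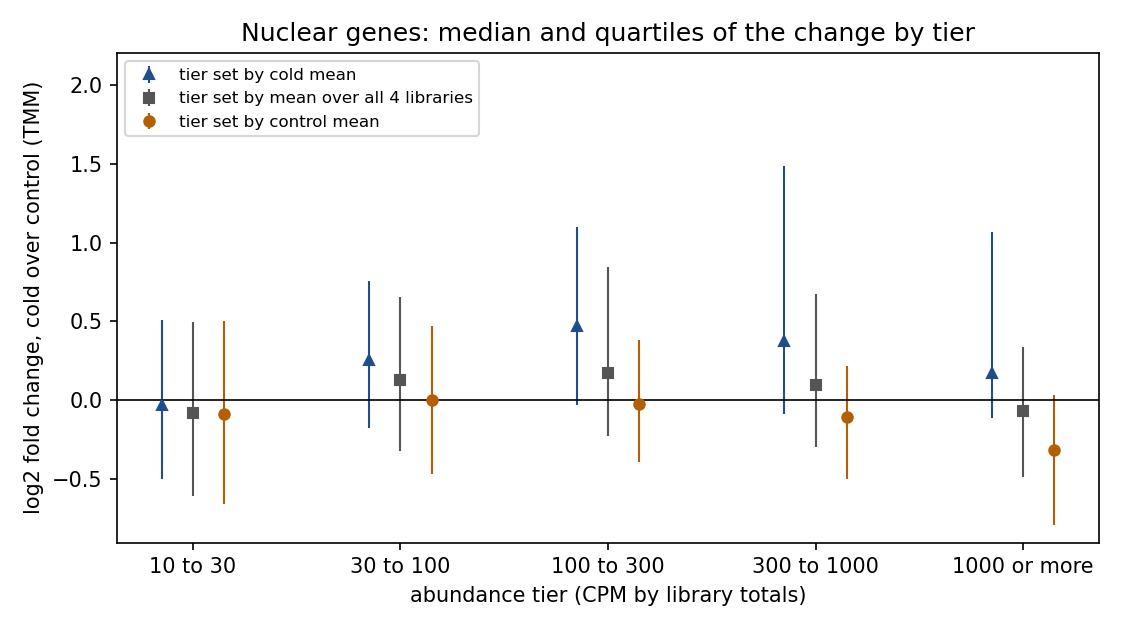
Median (symbol) and quartiles (bars) of the log2 fold change of cold over control for nuclear genes in 5 abundance tiers, with tiers set by the cold mean, the mean of all 4 libraries or the control mean. At 1000 CPM or more the medians were 0.18, -0.06 and -0.31 for the 3 ways of setting the tier.

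Values next to the limit of 1000 CPM show how the set ends. Just inside were Zm00001d015569, Zm00001d014564 and Zm00001d021703, whose lower control value was 1001, 1012 and 1032 CPM. Just outside were Zm00001d002822, Zm00001d008230 and Zm00001d039029, at 994.5, 993.7 and 987 CPM. Their cold levels were 1144 and 1260, 484 and 503, and 694 and 665 CPM for the genes inside, and 763 and 931, 935 and 897, and 695 and 800 CPM for the genes outside.

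Apart from the C4 and Rubisco genes, those outside the set that held high places in cold started from a wide range of control levels. Of the 13 that were neither in the set nor among the C4 and Rubisco genes and had at least 1000 CPM in both cold libraries, 7 had been under 500 CPM in both control libraries and 6 had been at 750 CPM or more in both. The highest of these 13 in cold was Zm00001d035337 on chromosome 6 (22131705 to 22136034), with 5644 and 7767 CPM in cold and 300.4 and 260 CPM in control. The next was Zm00001d028180 on chromosome 1 (25632515 to 25636718), with 4473 and 5953 CPM in cold and 16.3 and 22.3 CPM in control. Zm00001d009589 on chromosome 8 had 2359 and 1956 CPM in cold and 1101 and 795 CPM in control. Zm00001d051056 on chromosome 4 had 2119 and 2070 CPM in cold and 129 and 156 CPM in control, and Zm00001d025773 on chromosome 10 had 1964 and 2166 CPM in cold and 174 and 197 CPM in control. No cold library overlapped a control library for any of these 5 genes, but their cold values chose them, so this is no test. By library totals, 29.6% of all tested genes had cold above control without overlap.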

How the data were processed

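RNA-seq was carried out on 2 cold and 2 control libraries of maize seedlings. The authors deposited raw fragment counts for each gene, obtained with featureCounts 1.6.4 on the B73 RefGen_v4 annotation, per the file headers, without use of strand. Neither multi-mapping nor multi-overlapping reads were switched on for counting, so both kinds were left out. The tools fastp and HISAT2 appear in the submitters' processing notes. Exon length, another value in the deposited table, matched the exon coordinates in every row. CPM divides by library totals of 20942576 to 28493929 fragments, and TPM also by exon length. A floor of 3 fragments was 0.105 to 0.143 CPM. The lowest count of any of the 72 genes in any library was 2493 fragments, in cold replicate 1.

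The genes and lists were chosen with earlier results of these data known. The low-count filter was filterByExpr with a minimum count of 10 and a minimum total of 15, leaving 23169 genes. TMM factors were 0.9664 and 0.8935 (cold) and 1.053 and 1.100 (control). Differences were tested in edgeR 4.0.16 (R 4.3.3) by its quasi-likelihood test, with condition as the only term and Benjamini-Hochberg adjustment. The SE is the absolute log2 fold change divided by the square root of F. The fit was also run on simulated counts with a common dispersion for all genes and few changed genes. That setting differs from these data, so no result here rests on it. Lists by gene function were not used, since the reference table named 0 of the identifiers. Named genes are those with the highest control level, the largest called changes, the largest gains and losses of CPM, those next to the limit and the 5 highest in cold outside the set. Pairs of neighbouring genes were also named by rule. Genes named for overlap or replicate ratios were chosen after their values were seen. Chi-square statistics per degree of freedom of 25.0 (cold) and 11.3 (control) put the replicates of both conditions further apart than sampling noise. Alternatives were other scalings, filters, thresholds, DESeq2 1.42.0, the replicate number as a block, other abundance rules and leaving out each library.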

Additional observations from a re-analysis of the deposited data

How the results depend on the processing

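Changing the abundance rule moved most of the summaries. Over all tested genes 27.0% were called in each direction, and counts under another rule are not results about those sets. With 500 CPM there were 197 genes, of which 17 rose and 53 fell, with a difference in share (cold minus control) of -5.04 percentage points and a median log2 fold change of -0.16. With 2000 CPM there were 18 genes, 0 higher and 5 lower, and a difference of -1.78 points. Before adjustment edgeR put 1 of those 18 higher at p under 0.05, while 2 were called by DESeq2. With 1000 TPM 12 of 102 genes were higher and 31 lower, and with the C4 and Rubisco genes kept in 5 of 81 were higher and 23 lower. Judged over the mean of all libraries, the difference was -0.69 points, with 13 higher, 13 lower and a median of -0.065. Judged in the cold libraries, it was reversed, at 1.19 points, with 16 higher, 3 lower and a median of 0.14.

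Other scalings moved the median over all tested genes, from -0.03 with TMM to -0.24 with library totals and -0.19 with upper-quartile factors. For the 72 genes, DESeq2 called 5 higher, and library totals alone called 41 lower with a median of -0.56. Upper-quartile factors gave them a median of -0.51. With TMM, 13 of the 72 fell at least 2-fold. With a library left out, higher calls ranged from 2 to 4, lower calls from 17 to 29, the median from -0.45 to -0.20 and the difference in share from -4.41 to -3.06 points. A lone remaining library borrows its spread from the other condition. The replicate block left 3 genes higher (25.2% of all tested genes) and 19 lower (25.1%). The numbers share no stated origin, and their deviations correlated at -0.071, so the block is not read as a pairing.

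Among the genes named by rule, reversed changes belonged to 3 that were not called, Zm00001d023559 (-0.12 with upper-quartile factors, -0.18 with library totals, -0.17 to 0.23 with a library left out), Zm00001d002822 (0.0024 with RLE size factors and with DESeq2, -0.23 to 0.16 with a library left out) and Zm00001d008230 (-0.26 to 0.14 with a library left out). The cause was not tested. Of all 72 genes, 16 changed sign when a library was left out, and 0 of these were called. With 2 libraries a condition, the smallest called fall among the 72 genes was -0.54.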
